A study of Homo sapiens with 60 samples.

Results

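The 27 genes described here encode enzymes of cholesterol synthesis, the proteins that control the transcription factor SREBP2, and proteins that take up or move cholesterol. They were chosen by name, mapped to Ensembl identifiers, and all 27 were found among the 60675 gene identifiers of the count table. RNA sequencing measured them in HepG2, an established human hepatocellular carcinoma line, treated for 24 h with ethanol extracts, each made from a herb or from a decoction, which combine several herbs. The 27 genes fall into 7 early steps (ACAT2, HMGCS1, MVK, PMVK, MVD, IDI1 and FDPS), 12 late steps (FDFT1, SQLE, LSS, CYP51A1, TM7SF2, LBR, MSMO1, NSDHL, HSD17B7, EBP, SC5D and DHCR7), 4 genes of SREBP2 control (SREBF2, SCAP, INSIG1 and INSIG2) and 4 of uptake and transport (STARD4, NPC1, NPC2 and NPC1L1).

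All groups were HepG2 cells. The herbs were Polygalae Radix at 250, 50 and 10 ug/mL, Aucklandiae Radix at 280, 56 and 11.2 ug/mL, and Menthae Herba and Saposhnikoviae Radix at 500, 100 and 20 ug/mL. The decoctions Guibi-tang, Okbyeongpung-san, Saengmaek-san and Soyo-san were given at 500, 100 and 20 ug/mL. These are called the high, medium and low doses. The high dose was 500 ug/mL or, where that was lower, the concentration giving 20% inhibition, which set the high dose of Aucklandiae Radix and of Polygalae Radix. Menthae Herba, Saposhnikoviae Radix, Saengmaek-san, Guibi-tang and the DMSO vehicle had 3 libraries per group. Soyo-san, Aucklandiae Radix and Polygalae Radix had 2 libraries per dose, and Okbyeongpung-san had 1. The labels give the vehicle as 0.1% DMSO and the design text as 2% DMSO. Every title names the same batch, BatchD. The sample codes begin with 11 for Polygalae Radix and Aucklandiae Radix, 12 for Menthae Herba and Saposhnikoviae Radix, 13 for Saengmaek-san and Guibi-tang and 14 for Soyo-san and Okbyeongpung-san, and those of vehicle begin with a label of their own. Libraries that share this first part of the code are called a set here, although the labels do not say what it stands for. Nothing in the labels tells separate cultures from repeat libraries. P-values therefore set a difference only against how far libraries of the same group lay apart, a spread that may be technical. In the main fit that spread was estimated over all 22 fitted groups together, not from the compared groups alone.

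The 60 libraries held 17.5 to 38.9 M counts, with a median of 23.7 M. The log2 level of each gene, relative to its mean over the 60 libraries, was set against transcript GC content. Across genes this relative level changed by 0.083 to 0.21 per 10 percentage points in the vehicle libraries and by -0.042 to 0.026 in the low-dose libraries. Of the other treated libraries, Polygalae Radix high replicate 2 (0.124) and medium replicate 2 (0.178) lay in the range of vehicle, while the replicate 3 libraries of those groups were at -0.077 and 0.007. Summed markers of hepatocytes (6 of 6 detected, ALB the most abundant) were 17900 to 19300 CPM, scaled counts per 1 M counts of the library, in vehicle. The blood markers HBB (0 in every library), PTPRC and CD3E (at most 0.0446 and 0.0397 CPM) were at or near 0. CD68 lay at 11 to 52.7 CPM and LYZ at 561 to 1660 CPM. DCN, a stromal marker, was 0 in every library, and the 4 stromal markers summed to 59.4 to 61.4 CPM in vehicle, nearly all of it ACTA2, and to 8.09 to 52.6 CPM at the high doses. The 3 endothelial markers summed to 4.74 to 5.1 and 2.09 to 6.36 CPM, and the 5 blood markers to 1040 to 1090 and 578 to 1690 CPM.

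Cholesterol is made from acetyl-CoA through mevalonate. The early enzymes lead to farnesyl diphosphate, which other pathways also use, and FDFT1, squalene synthase, begins the branch that ends in sterols. When sterol in the endoplasmic reticulum is low, SCAP carries the SREBP2 precursor to the Golgi, where it is cut and released to switch on genes of synthesis and uptake. When sterol is high, INSIG1 and INSIG2 hold the SCAP and SREBP2 complex in the endoplasmic reticulum. The liver is a main site of cholesterol synthesis and clearance.

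SREBP2 is known to act on promoters together with the factors NF-Y and Sp1, so stretches just before the start of 6 members are shown, 5 whose values are described below as lower with several extracts, and INSIG2, which was higher. Each is the 150 bases before the outermost start of the gene in GENCODE 29, read from the RefSeq promoter table (GRCh38.p14), 5′ to 3′ on the strand of the gene. Capitals mark the NF-Y box CCAAT on either strand and the sterol response element TCACNCCAC on either strand. The positions are chr22:41832929-41833078 (plus strand) for SREBF2, chr5:43313513-43313662 (minus strand) for HMGCS1, chr16:88663162-88663311 (minus strand) for MVD, chr21:46228825-46228974 (minus strand) for LSS, chr5:111512591-111512740 (minus strand) for STARD4 and chr2:118088302-118088451 (plus strand) for INSIG2.
SREBF2: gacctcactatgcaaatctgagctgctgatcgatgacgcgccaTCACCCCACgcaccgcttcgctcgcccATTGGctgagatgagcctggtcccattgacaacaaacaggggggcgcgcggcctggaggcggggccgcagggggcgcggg
HMGCS1: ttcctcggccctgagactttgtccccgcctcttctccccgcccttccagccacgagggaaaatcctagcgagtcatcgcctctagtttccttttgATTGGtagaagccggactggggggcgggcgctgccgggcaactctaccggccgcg
MVD: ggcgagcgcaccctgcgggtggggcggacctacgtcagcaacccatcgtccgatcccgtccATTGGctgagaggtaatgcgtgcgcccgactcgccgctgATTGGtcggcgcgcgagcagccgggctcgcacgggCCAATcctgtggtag
LSS: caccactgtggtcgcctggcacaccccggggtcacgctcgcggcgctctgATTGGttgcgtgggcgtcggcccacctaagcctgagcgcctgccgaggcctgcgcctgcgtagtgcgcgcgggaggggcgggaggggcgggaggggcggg
STARD4: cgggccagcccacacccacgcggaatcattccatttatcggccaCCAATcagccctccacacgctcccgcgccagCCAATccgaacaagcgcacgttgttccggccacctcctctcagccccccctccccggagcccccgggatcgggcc
INSIG2: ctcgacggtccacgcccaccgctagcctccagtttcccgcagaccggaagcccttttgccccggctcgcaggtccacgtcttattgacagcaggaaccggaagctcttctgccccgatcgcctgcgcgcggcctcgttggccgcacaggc
The SREBF2 stretch held 1 sterol response element and 1 NF-Y box, MVD held 3 NF-Y boxes, STARD4 2, and HMGCS1 and LSS 1 each. The INSIG2 stretch held neither motif. HMGCS1 and STARD4 were also called higher with Aucklandiae Radix.

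The 200 bases before each RefSeq start were searched for 24 of the 27 members. ACAT2 had no entry. Members on chromosome 8 (FDFT1 and SQLE) were left out of the search, a limit not set for all genes. CCAAT on either strand was present for 18 of these 24 genes (75.0%), against 32.7% of all 27305 genes with an entry. By step it was found for 5 of 6 early, 8 of 10 late, 2 of 4 control and 3 of 4 uptake genes. It was absent for PMVK, CYP51A1, LBR, SCAP, INSIG2 and NPC1, and of these CYP51A1 and LBR were called lower in 4 extracts each. INSIG1, called higher with Aucklandiae Radix, had it. Whether the box goes with the direction of change was not tested. GGGCGG, a box bound by Sp1, was present on either strand for 21 of 24 (87.5%) against 43.9% of all genes. TCACNCCAC was present only for SREBF2 among the 24 (4.2%), against 0.9% of all genes. Only this string was searched, so its absence does not show that a promoter lacks a sterol response element. The 3 motifs can lie next to or across each other, and such a match is a description of letters, not of binding.

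In vehicle, levels per kilobase of the longest annotated transcript spanned a wide range. FDFT1 was highest at 180 CPM per kilobase, followed by SQLE at 129, HMGCS1 at 117 and DHCR7 at 108. MVD (99.2) and FDPS (97.1) followed. Among the regulators, SREBF2 stood at 48.6, SCAP at 34.4 and INSIG2 at 10.9 CPM per kilobase. NPC2 stood at 41.8, NPC1 at 22.7, NPC1L1 at 15.3 and STARD4 at 13.7. PMVK was second lowest at 5.32, with 151 to 158 counts per library. INSIG1 was lowest at 0.0439 CPM per kilobase, with 2 to 4 counts per vehicle library and 0 to 29 over all libraries, so its values carry large counting error. Whether the annotation or the counting used by the authors lowers INSIG1 was not tested. Neighbours in this order such as MVD (233 ± 28.2 CPM, SD, n = 3) and FDPS (196 ± 11.3) are set apart per kilobase by less than the spread of MVD.

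The main comparison set the high dose of an extract against its own low dose, within a set, which avoids the vehicle libraries. Each gene was tested with edgeR's quasi-likelihood test over 16982 genes, and a gene is called higher or lower at a Benjamini-Hochberg adjusted p under 0.05 in that comparison. Most of the 19 enzymes of cholesterol synthesis were called lower at the high dose of 4 extracts: 19 with Polygalae Radix, 18 with Menthae Herba, 18 with Guibi-tang, where PMVK was higher, and 17 with Soyo-san. With Polygalae Radix 24 of 27 members were lower and 2 higher, where 32.7% of all tested genes were lower and 31.5% higher. Without high replicate 2 of Polygalae Radix 24 were lower and 1 higher. These values are scaled to the counts of each library and do not show the number of cells. In bulk libraries fewer cells expressing a gene and less of its RNA per cell cannot be told apart. With Menthae Herba 23 were lower and 1 higher, against 12.1% and 11.4% of all genes. With Guibi-tang 20 were lower and 4 higher, against 17.2% and 17.1%. With Soyo-san 19 were lower and 2 higher, against 1.73% and 2.2%.

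With Aucklandiae Radix 12 members were lower and 8 higher, against 35.3% and 34.1% of all genes, shares not far from the background. With Saposhnikoviae Radix 6 were lower and 0 higher, against 0.459% and 0.383%, and DESeq2 called 8 members. All 27 members had a log2 fold change below 0 with Saposhnikoviae Radix, 16 of them at an unadjusted p under 0.05. Of all genes called there, 45.5% were higher, and 75% with the trend on GC content and transcript length removed (2.43% of all genes higher and 0.813% lower). The count was 3 without Saposhnikoviae Radix high replicate 1, 14 when only the 2 groups were fitted, and 11 with that trend removed. HMGCS1, MVD, CYP51A1, SC5D and STARD4 gained the call under both of these settings, and MVK, SQLE and SREBF2 when only the 2 groups were fitted. With Saengmaek-san edgeR called 0 members, against 0.236% lower and 0.206% higher, while 5 had an unadjusted p under 0.05 and DESeq2 called 0. HMGCS1 was called there with no filter (-0.19), when only the 2 groups were fitted (-0.18) and with the trend removed (-0.18). The share of called genes that were higher was 46.7% there, and 73.8% with the trend removed (1.16% of all genes higher and 0.412% lower).

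The median log2 fold change of the 27 members, high against low dose, was -1.2 with Polygalae Radix, -0.77 with Menthae Herba, -0.41 with Guibi-tang, -0.35 with Soyo-san, -0.15 with Saposhnikoviae Radix, -0.09 with Aucklandiae Radix and -0.06 with Saengmaek-san. The median over all tested genes lay between -0.01 and 0.01 in each of these comparisons. Of the 19 enzymes, 18 were lower in at least 4 of the 7 extracts, the exception being PMVK. The share of all tested genes lower in at least 4 extracts was not computed. SCAP and INSIG2 were the 2 members lower in none, although INSIG2 was lower with Aucklandiae Radix once the GC and length trend was removed (-0.23).

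**Figure D1:**
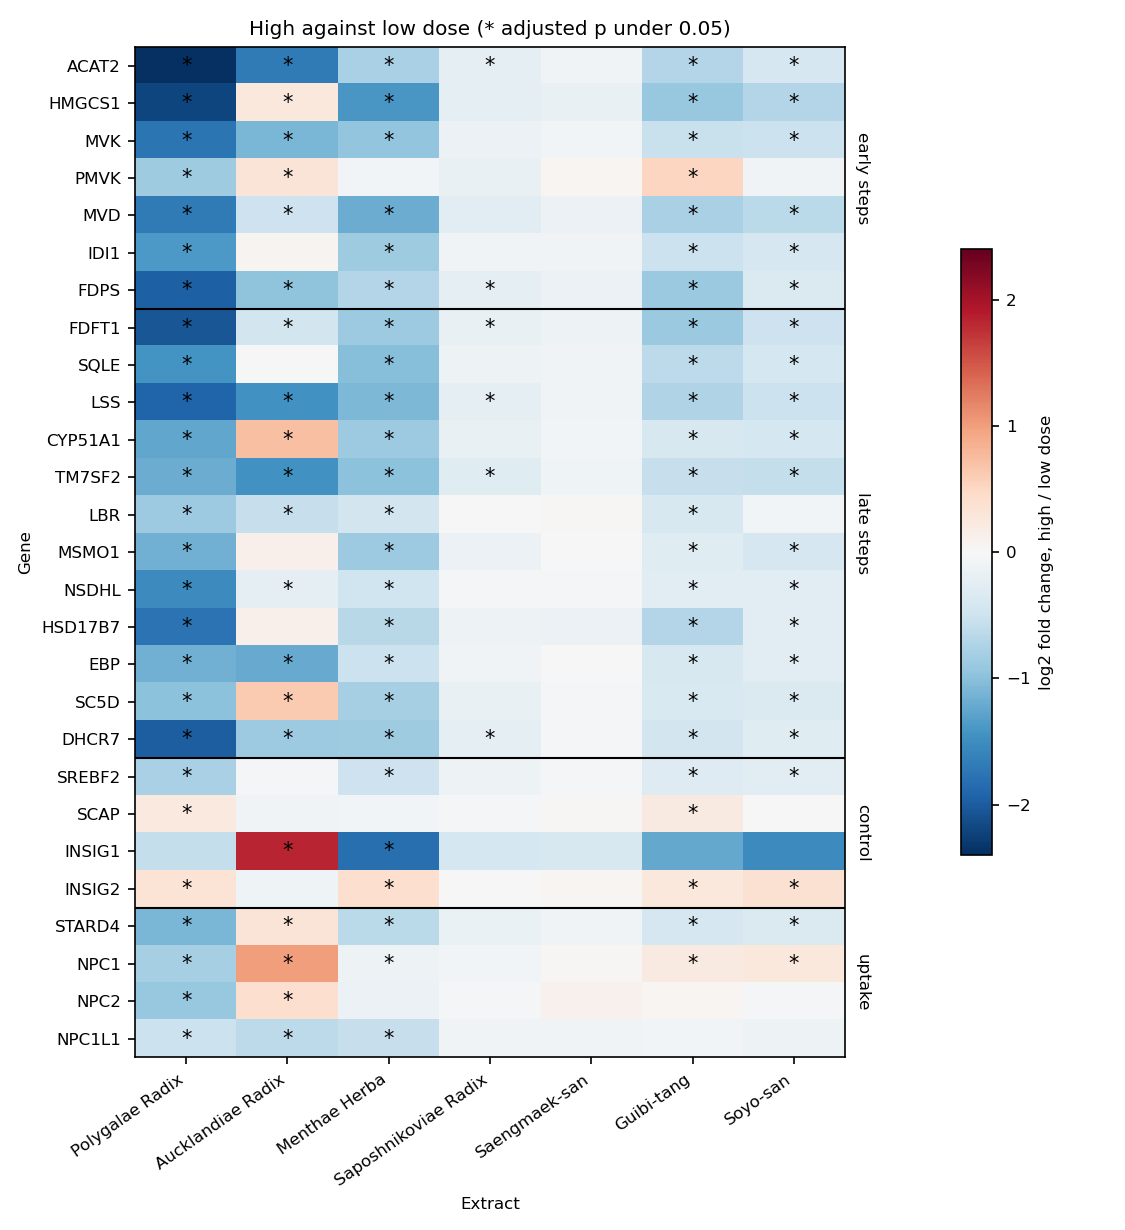
Log2 fold change of each of the 27 genes (rows, by step) at the high against the low dose of 7 extracts (columns), on a colour scale from blue (lower) to red (higher), with an asterisk where the adjusted p was under 0.05. Enzyme rows are blue and called in the Polygalae Radix, Menthae Herba and Guibi-tang columns except PMVK, which is not called with Menthae Herba and is higher with Guibi-tang, and the Aucklandiae Radix column holds both colours.

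Markers of hepatocytes moved with the dose in some of these extracts. Their sum was 19000 to 19200 CPM at the low and 5880 to 6370 CPM at the high dose of Polygalae Radix, 20100 to 21400 and 14900 to 15600 for Menthae Herba, and 19000 to 20500 and 11000 to 13600 for Guibi-tang. For Aucklandiae Radix it was 18300 to 18400 and 13200 to 13700, and for Soyo-san 20800 to 20900 and 18300 to 18700. For Saposhnikoviae Radix it was 21000 to 22200 and 20100 to 20600, and for Saengmaek-san 20500 to 21600 and 20600 to 22400. The part of these shifts in the results below was not tested.

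The summed level of the 7 early enzymes was 1590 ± 34.2 CPM (SD, n = 2) at the low and 409 ± 24 at the high dose of Polygalae Radix. The late enzymes summed to 2710 ± 33.1 and 950 ± 42.1 CPM. Early sums went from 1460 ± 15.8 to 718 ± 29.8 CPM (n = 3) with Menthae Herba, from 1460 ± 34.8 to 861 ± 45.2 (n = 3) with Guibi-tang and from 1490 ± 29.7 to 1030 ± 10.8 (n = 2) with Soyo-san. Late sums went from 2550 ± 15.1 to 1400 ± 20.9 CPM, from 2550 ± 21.4 to 1740 ± 69.4 and from 2590 ± 12.3 to 1970 ± 57.9 with the same 3 extracts. Median log2 fold changes were lower for early than for late enzymes in these extracts except Menthae Herba: -1.75 and -1.33 with Polygalae Radix, -0.85 and -0.86 with Menthae Herba, -0.71 and -0.41 with Guibi-tang, and -0.41 and -0.38 with Soyo-san. This difference between steps was not tested.

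Uptake and transport genes moved in different directions among the extracts. Their sum was 362 ± 6.02 CPM at the low and 203 ± 6.72 at the high dose of Polygalae Radix (n = 2), and 336 ± 3.11 and 267 ± 14.3 with Menthae Herba (n = 3). With Aucklandiae Radix it was 341 ± 3.61 and 486 ± 26.1 CPM (n = 2). With Guibi-tang (334 ± 3.88 and 329 ± 12, n = 3) and Soyo-san (337 ± 5.96 and 333 ± 1.4, n = 2) the libraries of the low and high dose lay in the same range.

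**Figure D2:**
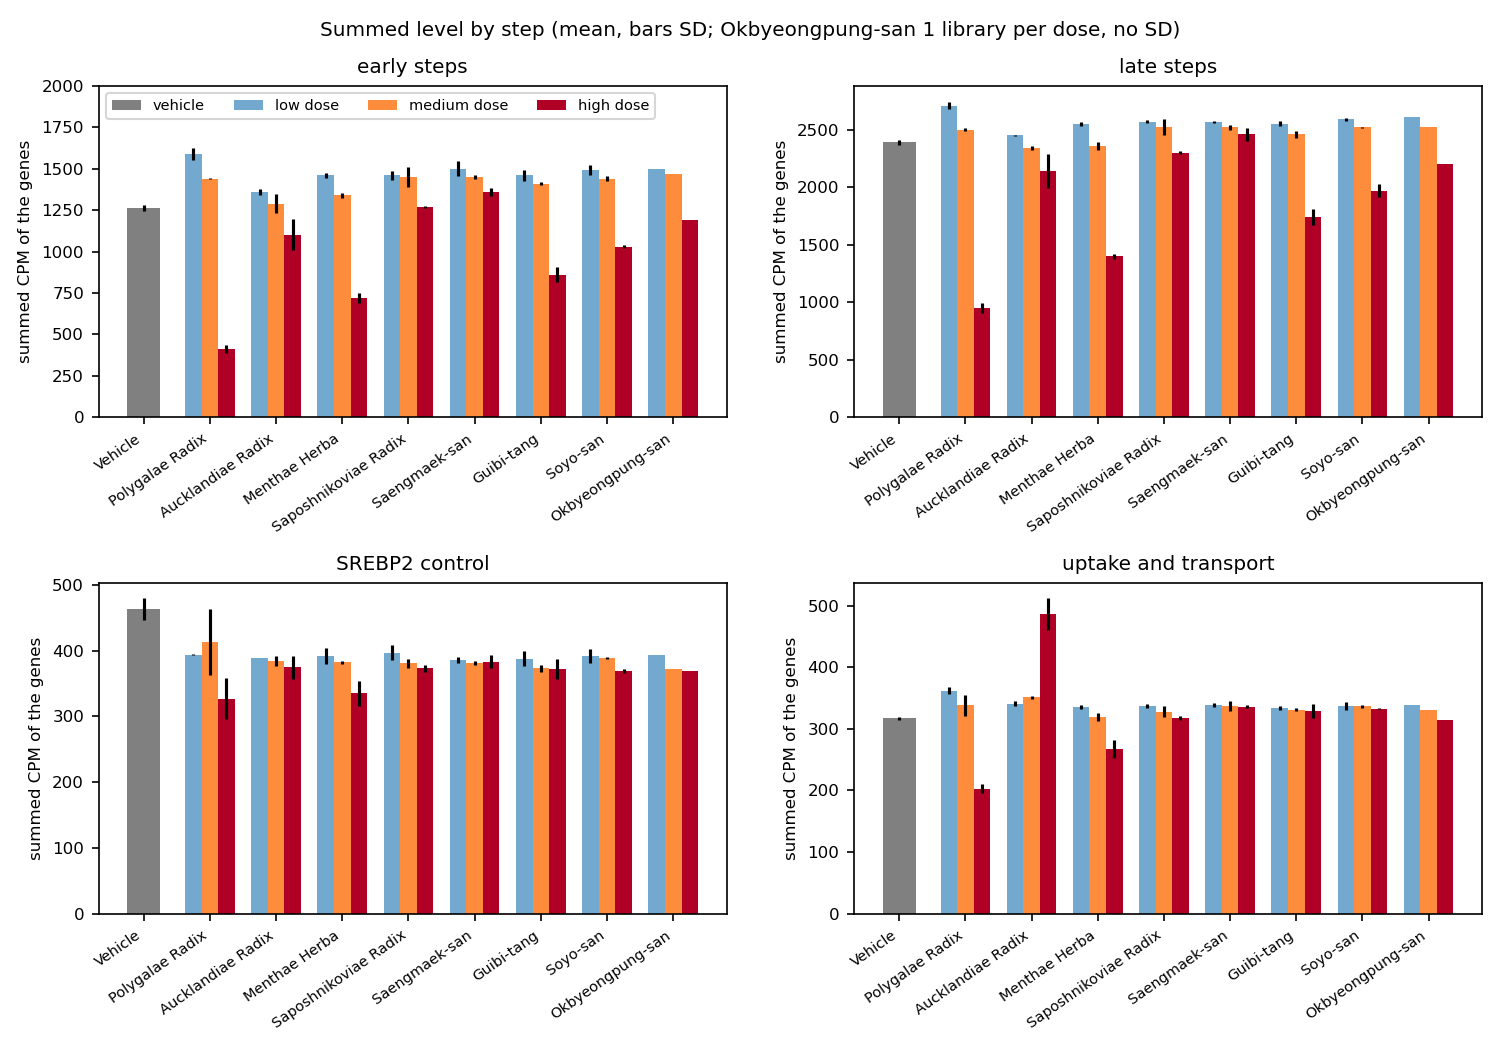
Summed CPM of the genes of each step (4 panels, linear axes from 0) in vehicle and at the low, medium and high dose of the 8 extracts, as group means with SD bars (n = 2 or 3, and 1 library without SD for Okbyeongpung-san). Early and late sums are lowest at the high dose of Polygalae Radix (409 and 950 CPM), and the uptake sum is highest at the high dose of Aucklandiae Radix (486 CPM).

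HMGCS1, HMG-CoA synthase, makes the substrate of the step that forms mevalonate. Vehicle libraries measured 444, 402 and 380 CPM. HMGCS1 under Polygalae Radix measured 570 and 548 CPM at the low, 448 and 523 at the medium and 106 and 136 at the high dose. HMGCS1 under Menthae Herba measured 508, 498 and 528 CPM at the low, 463, 452 and 455 at the medium and 183, 204 and 196 at the high dose. HMGCS1 under Guibi-tang measured 495, 522 and 517 CPM at the low, 466, 470 and 474 at the medium and 271, 272 and 271 at the high dose. In these 3 extracts every high-dose library lay below every medium- and low-dose library, and HMGCS1 was among the 3 most changed called members of each. HMGCS1 under Soyo-san measured 518 and 529 CPM at the low, 507 and 491 at the medium and 316 and 324 at the high dose. HMGCS1 under Aucklandiae Radix measured 455 and 474 CPM at the low, 422 and 442 at the medium and 605 and 504 at the high dose. HMGCS1 under Okbyeongpung-san measured 513 CPM at the low, 505 at the medium and 394 at the high dose. With Soyo-san the high dose again lay lowest, whereas with Aucklandiae Radix both high-dose libraries lay above the others. HMGCS1 under Saposhnikoviae Radix measured 526, 504 and 496 CPM at the low, 567, 496 and 505 at the medium and 449, 432 and 438 at the high dose. HMGCS1 under Saengmaek-san measured 531, 515 and 514 CPM at the low, 525, 520 and 503 at the medium and 465, 451 and 459 at the high dose. In both of these the high dose lay below the low dose without overlap, but neither difference was called (-0.21 ± 0.06 SE, adjusted p = 0.073, and -0.18 ± 0.06, adjusted p = 0.218).

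The log2 fold change of HMGCS1, high against low dose, was -2.21 ± 0.08 (SE, adjusted p = 2.49e-28 by edgeR) with Polygalae Radix, a 4.62-fold fall. It was -1.4 ± 0.06 (adjusted p = 2.31e-23) with Menthae Herba, -0.91 ± 0.06 (3.77e-17) with Guibi-tang and -0.71 ± 0.07 (1.06e-09) with Soyo-san. With Aucklandiae Radix it was 0.26 ± 0.07 (0.00168), a call that was lost without high replicate 2 (0.12, adjusted p = 0.213).

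ACAT2, the cytosolic thiolase that begins the pathway, was the most changed member with Polygalae Radix. ACAT2 under Polygalae Radix measured 274 and 283 CPM at the low, 227 and 234 at the medium and 51.3 and 55.3 at the high dose. ACAT2 under Aucklandiae Radix measured 234 and 243 CPM at the low, 228 and 242 at the medium and 71.8 and 75.7 at the high dose. Its log2 fold change was -2.39 ± 0.06 (SE, adjusted p = 3.92e-34) with Polygalae Radix and -1.69 ± 0.06 (6.39e-29) with Aucklandiae Radix, so it fell in both. ACAT2 overlaps TCP1 on the opposite strand, and the strand setting of the counting is not given in the sources used here. With Saposhnikoviae Radix its call (-0.21) was lost without high replicate 1 (-0.18, adjusted p = 0.0962) or low replicate 1 (-0.19, adjusted p = 0.0517).

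MVD, which decarboxylates mevalonate diphosphate, was among the most changed members with Menthae Herba and Soyo-san. MVD under Menthae Herba measured 213, 216 and 219 CPM at the low, 196, 193 and 193 at the medium and 85.6, 93.7 and 103 at the high dose. MVD under Soyo-san measured 217 and 221 CPM at the low, 217 and 206 at the medium and 138 and 144 at the high dose. The high dose was lowest in both, at -1.2 ± 0.08 (SE, adjusted p = 2.57e-16) and -0.64 ± 0.1 (adjusted p = 1.02e-05). FDPS, which makes farnesyl diphosphate, stood out with Guibi-tang and Saposhnikoviae Radix. FDPS under Guibi-tang measured 206, 206 and 219 CPM at the low, 199, 213 and 203 at the medium and 120, 99.5 and 121 at the high dose. FDPS under Saposhnikoviae Radix measured 214, 213 and 217 CPM at the low, 204, 205 and 210 at the medium and 181, 188 and 183 at the high dose. Its log2 fold change was -0.89 ± 0.05 (adjusted p = 3.43e-20) with Guibi-tang. With Saposhnikoviae Radix it was -0.22 ± 0.05 (adjusted p = 0.00634), lost without high replicate 1 (-0.21, adjusted p = 0.0584).

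MVK, mevalonate kinase, and IDI1, which isomerises isopentenyl diphosphate, were lower in 5 and 4 of the 7 extracts, with lowest log2 fold changes of -1.75 and -1.38, both with Polygalae Radix. PMVK, phosphomevalonate kinase, was the one early enzyme called in both directions besides HMGCS1. It was lower with Polygalae Radix (-0.85) and higher with Guibi-tang (0.52 ± 0.11 SE, adjusted p = 0.000125) and Aucklandiae Radix (0.31). PMVK under Guibi-tang measured 9.22, 8.46 and 7.8 CPM at the low, 7.89, 9.24 and 9.34 at the medium and 12.9, 9.82 and 13.9 at the high dose. The 3 high-dose libraries lay above the low-dose libraries. With Aucklandiae Radix its call (adjusted p = 0.0384) was lost without low replicate 2 (0.34, adjusted p = 0.0737), high replicate 3 (0.2, 0.305) or low replicate 3 (0.28, 0.142), and with no filter (0.26, 0.0777).

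SQLE, squalene epoxidase, is a rate-limiting enzyme of the sterol branch. In vehicle it measured 391, 379 and 374 CPM. SQLE under Polygalae Radix measured 402 and 406 CPM at the low, 391 and 389 at the medium and 144 and 157 at the high dose. SQLE under Menthae Herba measured 397, 389 and 385 CPM at the low, 368, 355 and 350 at the medium and 205, 182 and 184 at the high dose. SQLE under Guibi-tang measured 386, 386 and 403 CPM at the low, 370, 364 and 370 at the medium and 247, 257 and 258 at the high dose. The high-dose libraries lay far below the rest, and the log2 fold changes were -1.43 ± 0.05 (SE, adjusted p = 1.45e-27), -1.03 ± 0.04 (2.24e-24) and -0.62 ± 0.04 (6.19e-17). SQLE under Soyo-san measured 405 and 383 CPM at the low, 392 and 384 at the medium and 310 and 279 at the high dose. SQLE under Aucklandiae Radix measured 376 and 373 CPM at the low, 352 and 351 at the medium and 402 and 346 at the high dose. SQLE under Okbyeongpung-san measured 391 CPM at the low, 388 at the medium and 345 at the high dose. SQLE fell with Soyo-san (-0.42 ± 0.05, adjusted p = 6.21e-08), while with Aucklandiae Radix the high-dose libraries lay on either side of the low dose (0 ± 0.05, adjusted p = 0.995). SQLE under Saposhnikoviae Radix measured 394, 400 and 387 CPM at the low, 393, 390 and 374 at the medium and 359, 358 and 359 at the high dose. SQLE under Saengmaek-san measured 379, 398 and 389 CPM at the low, 381, 392 and 391 at the medium and 371, 359 and 372 at the high dose. The high dose lay below the low dose in both, but SQLE was not called (-0.13 and -0.08).

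FDFT1, squalene synthase, fell in 6 of the 7 extracts. FDFT1 under Polygalae Radix measured 547 and 565 CPM at the low, 475 and 494 at the medium and 128 and 138 at the high dose. FDFT1 under Guibi-tang measured 491, 500 and 492 CPM at the low, 488, 499 and 482 at the medium and 276, 237 and 289 at the high dose. Its log2 fold change was -2.06 ± 0.05 (SE, adjusted p = 1.41e-33) with Polygalae Radix and -0.89 ± 0.04 (1.77e-22) with Guibi-tang. With Saposhnikoviae Radix its call (-0.18) was lost without high replicate 1, high replicate 2, low replicate 2 or low replicate 3 (adjusted p = 0.074, 0.106, 0.0591 and 0.115).

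LSS, which closes the ring to lanosterol, and TM7SF2, a sterol C14 reductase, also fell in 6 of 7 extracts. LSS under Aucklandiae Radix measured 288 and 292 CPM at the low, 257 and 272 at the medium and 109 and 104 at the high dose. LSS under Saposhnikoviae Radix measured 314, 302 and 305 CPM at the low, 289, 285 and 285 at the medium and 259, 256 and 265 at the high dose. TM7SF2 under Aucklandiae Radix measured 71.8 and 75.7 CPM at the low, 81.6 and 73.2 at the medium and 26.9 and 26.8 at the high dose. With Aucklandiae Radix both fell by 1.45 on the log2 scale (SE 0.06 for LSS and 0.08 for TM7SF2, adjusted p = 3.66e-26 and 4.09e-21). TM7SF2 under Saposhnikoviae Radix measured 83.7, 81.5 and 83.6 CPM at the low, 77.2, 78.2 and 77.2 at the medium and 67, 68.2 and 67.2 at the high dose. TM7SF2 under Soyo-san measured 81.2 and 80.5 CPM at the low, 73.6 and 78.8 at the medium and 51.5 and 56.3 at the high dose. TM7SF2 fell by 0.3 with Saposhnikoviae Radix (SE 0.06, adjusted p = 0.00335) and by 0.58 with Soyo-san (SE 0.07, adjusted p = 2.29e-07). TM7SF2 overlaps VPS51 on the same strand, so reads from the shared part could be counted for either.

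DHCR7 carries out the last reduction to cholesterol. Vehicle libraries measured 272, 294 and 297 CPM. DHCR7 under Polygalae Radix measured 305 and 299 CPM at the low, 292 and 259 at the medium and 79.8 and 73.5 at the high dose. DHCR7 under Aucklandiae Radix measured 266 and 256 CPM at the low, 252 and 265 at the medium and 142 and 142 at the high dose. DHCR7 under Menthae Herba measured 282, 274 and 274 CPM at the low, 256, 246 and 237 at the medium and 157, 151 and 151 at the high dose. In all 3 the high-dose libraries were lowest, and the log2 fold changes were -1.98 ± 0.06 (SE, adjusted p = 3.48e-31), -0.88 ± 0.06 (8.08e-19) and -0.85 ± 0.04 (3.13e-20). DHCR7 under Guibi-tang measured 275, 255 and 264 CPM at the low, 253, 252 and 261 at the medium and 201, 182 and 205 at the high dose. DHCR7 under Soyo-san measured 276 and 262 CPM at the low, 263 and 269 at the medium and 224 and 213 at the high dose. DHCR7 under Okbyeongpung-san measured 276 CPM at the low, 260 at the medium and 223 at the high dose. DHCR7 fell in the 2 replicated extracts here, by 0.44 (SE 0.04, adjusted p = 4.54e-11) with Guibi-tang and by 0.3 (SE 0.05, adjusted p = 0.000146) with Soyo-san. DHCR7 under Saposhnikoviae Radix measured 279, 275 and 284 CPM at the low, 271, 268 and 253 at the medium and 243, 240 and 240 at the high dose. DHCR7 under Saengmaek-san measured 277, 265 and 267 CPM at the low, 266, 260 and 260 at the medium and 270, 243 and 276 at the high dose. It fell by 0.21 with Saposhnikoviae Radix (adjusted p = 0.00634), a call lost without low replicate 3 (-0.2, adjusted p = 0.0574), and the doses of Saengmaek-san overlapped (-0.04, adjusted p = 0.933).

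Of the other late enzymes, CYP51A1 (lanosterol demethylase), MSMO1 (C4 methyl oxidase), HSD17B7 (3-keto reductase), SC5D (lathosterol desaturase) and LBR, the other C14 reductase, were lower in 4 extracts each. NSDHL, which works with MSMO1 and HSD17B7, and EBP, a sterol isomerase, were lower in 5. HSD17B7 reached -1.78 with Polygalae Radix, where the change in these 7 genes was otherwise between -0.87 (LBR) and -1.53 (NSDHL). HSD17B7 has a pseudogene, HSD17B7P2, with which reads could be shared. With Soyo-san 3 late calls were lost when a library was left out: HSD17B7 without any 1 of its 4 libraries (adjusted p = 0.081, 0.207, 0.443 and 0.172) or with DESeq2 (0.055), EBP without high or low replicate 2 (0.097 and 0.0969), and SC5D without high replicate 2 (0.0558).

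**Figure D3:**
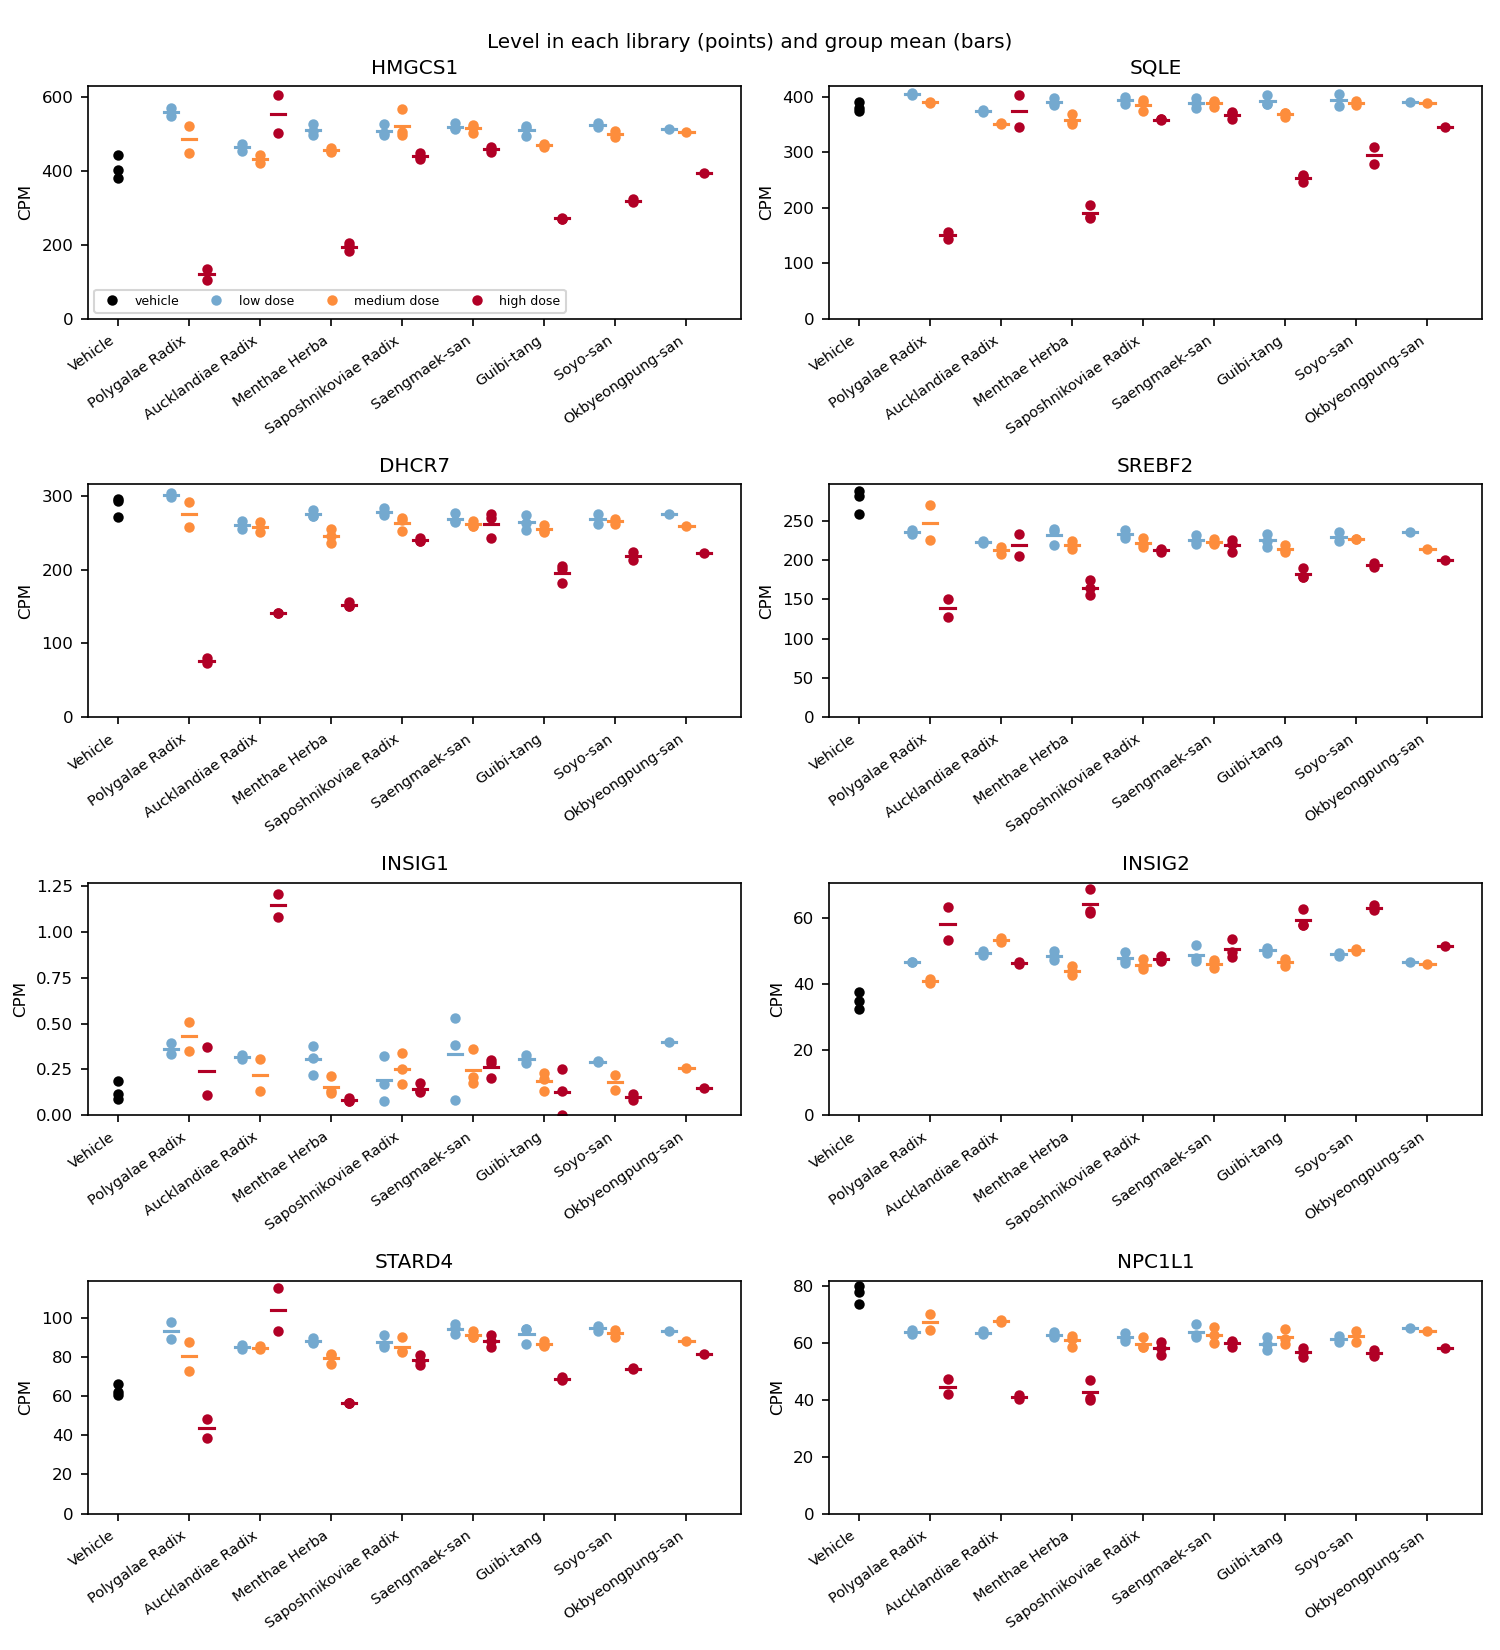
CPM of 8 genes (panels, linear axes from 0) in every library, by extract and dose, with a short bar at each group mean and black points for vehicle. HMGCS1 at the high dose lies at 106 to 136 CPM with Polygalae Radix, 183 to 204 with Menthae Herba and 504 to 605 with Aucklandiae Radix.

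SREBF2 encodes SREBP2 itself. In vehicle it measured 259, 289 and 282 CPM. SREBF2 under Polygalae Radix measured 234 and 239 CPM at the low, 270 and 226 at the medium and 150 and 128 at the high dose. SREBF2 under Menthae Herba measured 237, 240 and 220 CPM at the low, 225, 220 and 215 at the medium and 175, 164 and 156 at the high dose. SREBF2 under Guibi-tang measured 234, 217 and 225 CPM at the low, 210, 213 and 219 at the medium and 179, 190 and 179 at the high dose. All high-dose libraries lay below the low dose, and SREBF2 fell by 0.77, 0.49 and 0.31 on the log2 scale (adjusted p = 1.73e-14, 1.97e-10 and 5.07e-06). SREBF2 under Soyo-san measured 236 and 224 CPM at the low, 227 and 227 at the medium and 196 and 191 at the high dose. SREBF2 under Aucklandiae Radix measured 222 and 225 CPM at the low, 208 and 217 at the medium and 233 and 205 at the high dose. SREBF2 under Okbyeongpung-san measured 236 CPM at the low, 215 at the medium and 200 at the high dose. With Soyo-san it fell by 0.25 (adjusted p = 0.0132), a call lost without high replicate 1 (-0.27, adjusted p = 0.0636), low replicate 1 (-0.21, 0.221) or high replicate 2 (-0.23, 0.172). With Aucklandiae Radix the groups overlapped (-0.03). SREBF2 under Saposhnikoviae Radix measured 228, 232 and 239 CPM at the low, 221, 229 and 217 at the medium and 213, 210 and 215 at the high dose. SREBF2 under Saengmaek-san measured 221, 232 and 224 CPM at the low, 227, 222 and 221 at the medium and 221, 210 and 226 at the high dose. Neither of these was called (-0.13 and -0.04).

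INSIG2, one of the 2 retention proteins, was higher in 4 extracts in which the enzymes fell. Vehicle libraries measured 37.6, 32.2 and 34.7 CPM. INSIG2 under Polygalae Radix measured 46.7 and 46.6 CPM at the low, 40.3 and 41.6 at the medium and 53.3 and 63.3 at the high dose. INSIG2 under Menthae Herba measured 47.1, 48.6 and 49.9 CPM at the low, 43.8, 42.6 and 45.5 at the medium and 69, 62.2 and 61.5 at the high dose. INSIG2 under Guibi-tang measured 49.3, 50.9 and 50.3 CPM at the low, 47.6, 45.3 and 46.7 at the medium and 57.8, 57.9 and 62.8 at the high dose. High-dose libraries lay above all others here, and the log2 fold changes were 0.32 ± 0.06 (SE, adjusted p = 1.39e-05), 0.41 ± 0.05 (1.19e-08) and 0.25 ± 0.05 (0.000104). INSIG2 under Soyo-san measured 49.3 and 48.6 CPM at the low, 49.9 and 50.6 at the medium and 63.9 and 62.5 at the high dose. INSIG2 under Aucklandiae Radix measured 50 and 48.8 CPM at the low, 54 and 52.7 at the medium and 45.9 and 46.6 at the high dose. INSIG2 under Okbyeongpung-san measured 46.7 CPM at the low, 46.1 at the medium and 51.4 at the high dose. INSIG2 rose with Soyo-san (0.37 ± 0.06, adjusted p = 5.53e-05) and was not called with Aucklandiae Radix (-0.1), where it was called lower after removal of the GC and length trend (-0.23, adjusted p = 0.000155). INSIG2 under Saposhnikoviae Radix measured 46.3, 47.4 and 49.6 CPM at the low, 47.5, 44.6 and 45.3 at the medium and 47.3, 46.8 and 48.4 at the high dose. INSIG2 under Saengmaek-san measured 51.8, 46.8 and 47.8 CPM at the low, 46.5, 44.9 and 47.1 at the medium and 48.2, 49.8 and 53.6 at the high dose. The doses overlapped in both of these extracts (-0.01 and 0.05).

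SCAP, the sterol sensor that escorts SREBP2, was called only with Polygalae Radix (0.23, adjusted p = 0.00456) and Guibi-tang (0.21, adjusted p = 0.00314) among the 7 extracts. The first call was lost without high replicate 2 (0.03, adjusted p = 0.723) or low replicate 3 (0.2, 0.0548) and when only the 2 groups were fitted (0.138), and the second without high replicate 2 (0.15, 0.0649).

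INSIG1, the retention protein that is itself a known SREBP2 target, had few counts. Vehicle libraries measured 0.117, 0.0903 and 0.189 CPM. INSIG1 under Aucklandiae Radix measured 0.307 and 0.331 CPM at the low, 0.307 and 0.131 at the medium and 1.21 and 1.08 at the high dose. INSIG1 under Menthae Herba measured 0.378, 0.222 and 0.314 CPM at the low, 0.135, 0.119 and 0.215 at the medium and 0.093, 0.0764 and 0.0795 at the high dose. INSIG1 under Guibi-tang measured 0.328, 0.305 and 0.286 CPM at the low, 0.231, 0.134 and 0.198 at the medium and 0, 0.134 and 0.254 at the high dose. With Aucklandiae Radix the high-dose libraries lay above all others, with 55 counts in all against 16 at the low dose. The ratio was 3.59, with an exact 95% interval of 2.03 to 6.71 that covers counting error only, and the edgeR log2 fold change was 1.83 ± 0.46 (SE, adjusted p = 0.000487). With Menthae Herba there were 7 counts against 21, a ratio of 0.274 (0.0984 to 0.669) and a log2 fold change of -1.81 ± 0.58 (adjusted p = 0.0177). That call was lost without low replicate 1 (-1.62, adjusted p = 0.0828) or high replicate 2 (-1.75, adjusted p = 0.0532), and with DESeq2 (-1.87, adjusted p = 0.0525). With Guibi-tang there were 9 counts against 25, a ratio of 0.416 (0.171 to 0.92), and INSIG1 was not called (adjusted p = 0.074), though it was without high replicate 3 (-2.17).

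INSIG1 under Polygalae Radix measured 0.393 and 0.332 CPM at the low, 0.349 and 0.511 at the medium and 0.11 and 0.375 at the high dose. INSIG1 under Soyo-san measured 0.29 and 0.294 CPM at the low, 0.221 and 0.14 at the medium and 0.116 and 0.0843 at the high dose. INSIG1 under Okbyeongpung-san measured 0.402 CPM at the low, 0.257 at the medium and 0.15 at the high dose. INSIG1 was called in neither replicated extract here, with ratios of 0.664 (0.298 to 1.41) and 0.335 (0.081 to 1.05). INSIG1 under Saposhnikoviae Radix measured 0.324, 0.17 and 0.0787 CPM at the low, 0.34, 0.171 and 0.251 at the medium and 0.175, 0.125 and 0.132 at the high dose. INSIG1 under Saengmaek-san measured 0.0844, 0.384 and 0.532 CPM at the low, 0.362, 0.174 and 0.207 at the medium and 0.286, 0.299 and 0.204 at the high dose. The doses of both overlapped, with ratios of 0.736 (0.296 to 1.75) and 0.754 (0.39 to 1.43). With so few counts changes of such size were not detectable.

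STARD4 carries sterol between membranes inside the cell. In vehicle it measured 66.3, 62 and 60.6 CPM. STARD4 under Polygalae Radix measured 97.7 and 89.1 CPM at the low, 72.6 and 87.8 at the medium and 38.7 and 48.4 at the high dose. STARD4 under Menthae Herba measured 87.2, 87.3 and 89.8 CPM at the low, 76.4, 80.9 and 81.4 at the medium and 56.4, 56.4 and 56.5 at the high dose. STARD4 under Guibi-tang measured 86.4, 94.3 and 94.2 CPM at the low, 86, 85.5 and 87.9 at the medium and 68.2, 68.7 and 69.7 at the high dose. The high dose was lowest in these, and STARD4 fell by 1.1, 0.64 and 0.41 on the log2 scale (adjusted p = 2.19e-17, 7.19e-12 and 2.33e-07). STARD4 under Soyo-san measured 93.3 and 95.9 CPM at the low, 93.7 and 90.1 at the medium and 73.6 and 74.3 at the high dose. STARD4 under Aucklandiae Radix measured 86.2 and 83.8 CPM at the low, 85.3 and 84 at the medium and 115 and 93.2 at the high dose. STARD4 under Okbyeongpung-san measured 93.2 CPM at the low, 88.3 at the medium and 81.2 at the high dose. STARD4 fell by 0.35 with Soyo-san (adjusted p = 0.00118) and was higher with Aucklandiae Radix (0.3 ± 0.07 SE, adjusted p = 0.000323), a call lost without high replicate 2 (0.13, adjusted p = 0.139). STARD4 under Saposhnikoviae Radix measured 91.3, 85.8 and 85 CPM at the low, 90, 83.1 and 82.3 at the medium and 81, 78 and 75.8 at the high dose. STARD4 under Saengmaek-san measured 94.5, 96.9 and 91.6 CPM at the low, 93.3, 90.2 and 89.9 at the medium and 88.3, 85.2 and 91.3 at the high dose. The high dose lay below the low dose in both, but neither was called (-0.16 and -0.09).

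NPC1L1 takes up sterol at the cell surface. Vehicle libraries measured 73.7, 79.8 and 77.8 CPM, above every treated library. NPC1L1 under Polygalae Radix measured 63 and 64.6 CPM at the low, 70.1 and 64.6 at the medium and 47.2 and 41.9 at the high dose. NPC1L1 under Aucklandiae Radix measured 64 and 63.2 CPM at the low, 67.3 and 67.9 at the medium and 41.7 and 40.3 at the high dose. NPC1L1 under Menthae Herba measured 62, 62.7 and 63.7 CPM at the low, 61.4, 62.4 and 58.6 at the medium and 47, 40 and 40.7 at the high dose. It fell with these 3 extracts, by 0.52, 0.63 and 0.56 on the log2 scale (adjusted p = 2.35e-10, 9.99e-13 and 1.29e-12). NPC1L1 under Guibi-tang measured 61.9, 57.3 and 59.4 CPM at the low, 64.7, 61.2 and 59.7 at the medium and 55, 56.7 and 58.1 at the high dose. NPC1L1 under Soyo-san measured 62.3 and 60.3 CPM at the low, 60.4 and 64.2 at the medium and 57.4 and 55.4 at the high dose. NPC1L1 under Okbyeongpung-san measured 65.2 CPM at the low, 64.1 at the medium and 58.3 at the high dose. The high and low doses overlapped with Guibi-tang (-0.07) and lay apart with Soyo-san (-0.12), and neither was called. NPC1L1 under Saposhnikoviae Radix measured 60.6, 61.7 and 63.6 CPM at the low, 58.6, 61.9 and 58.5 at the medium and 60.2, 55.6 and 58.3 at the high dose. NPC1L1 under Saengmaek-san measured 62.1, 66.7 and 62.8 CPM at the low, 62.9, 59.9 and 65.5 at the medium and 60.6, 60.4 and 58.5 at the high dose. The log2 fold change was -0.09 in both.

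NPC1 and NPC2 release cholesterol from lysosomes. NPC1 under Polygalae Radix measured 125 and 129 CPM at the low, 115 and 124 at the medium and 69.7 and 77.4 at the high dose. NPC1 under Aucklandiae Radix measured 127 and 128 CPM at the low, 133 and 133 at the medium and 261 and 249 at the high dose. NPC1 under Guibi-tang measured 117, 117 and 121 CPM at the low, 115, 119 and 117 at the medium and 133, 140 and 139 at the high dose. NPC1 fell with Polygalae Radix (-0.79 ± 0.05 SE, adjusted p = 1.5e-17) and rose with Aucklandiae Radix (1 ± 0.05, adjusted p = 6.29e-22) and Guibi-tang (0.22 ± 0.04, adjusted p = 6.1e-05). It rose with Soyo-san (0.26, adjusted p = 0.000963), a call lost without high replicate 2 (0.23, adjusted p = 0.0552). It fell with Menthae Herba by 0.12 (adjusted p = 0.0313), a call lost without high replicate 2, low replicate 2, high replicate 3 or low replicate 3 (adjusted p = 0.0928, 0.0909, 0.38 and 0.0906) and with no filter (-0.11), with only the 2 groups fitted (-0.12) or after removal of the GC and length trend (-0.08). NPC2 fell with Polygalae Radix (-0.91), rose with Aucklandiae Radix (0.4) and was not called in the other 5 extracts. It was called lower with Menthae Herba when only the 2 groups were fitted (-0.15, adjusted p = 0.0149) or the GC and length trend was removed (-0.17, 0.0249), and higher with Guibi-tang without high replicate 2 (0.19).

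Members were called in both directions with Aucklandiae Radix, 8 higher and 12 lower, where 34.1% and 35.3% of all genes were. INSIG1, NPC1, CYP51A1 (0.72), SC5D (0.62), NPC2, PMVK, STARD4 and HMGCS1 were higher, while ACAT2, LSS, TM7SF2, EBP (-1.21), MVK (-1.1), FDPS (-0.96), DHCR7, NPC1L1, LBR (-0.55), MVD (-0.5), FDFT1 (-0.44) and NSDHL (-0.23) were lower. CYP51A1 under Aucklandiae Radix measured 279 and 285 CPM at the low, 275 and 280 at the medium and 490 and 437 at the high dose. SC5D under Aucklandiae Radix measured 126 and 127 CPM at the low, 125 and 122 at the medium and 199 and 190 at the high dose. Both high-dose libraries of each lay above the others. MSMO1 (0.12) and HSD17B7 (0.13) were not called, but both were called higher without high replicate 3 (0.27 and 0.29) and with a filter at a mean of 1 CPM (0.17 and 0.19), and HSD17B7 also with RLE scaling and with DESeq2 (0.17 in each). The transcripts of the 8 higher members had a median GC content of 42.9% (34.2% to 59.5%), and those of the 12 lower members 57.1% (37.8% to 64.2%). Over all tested genes the median log2 fold change was 0.08 for transcripts under 45% GC and -0.12 for those of 55% or more, where the members' medians were 0.2 and -0.76. With the trend on GC content and length removed, 8 members were higher and 13 lower, against 33.8% and 37.5% of all genes.

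The dose response was compared directly between the 2 extracts of a set. With Aucklandiae Radix minus Polygalae Radix, 22 members differed upward and 3 downward (TM7SF2, SCAP and INSIG2). Of all genes 60.1% differed, 31.2% upward and 28.8% downward. For 7 members, HMGCS1, PMVK, CYP51A1, SC5D, STARD4, NPC1 and NPC2, the 2 extracts were called in opposite directions. The share of all genes called in opposite directions was not computed, so this count has no background beside it. The Aucklandiae Radix calls of HMGCS1, PMVK and STARD4 were lost without single libraries, as given above. The difference in TM7SF2 (-0.25, adjusted p = 0.0429) was lost without Polygalae Radix high replicate 2 or low replicate 3 or Aucklandiae Radix high replicate 2, high replicate 3 or low replicate 3 (adjusted p = 0.518, 0.122, 0.0841, 0.0877 and 0.129), and that in SCAP (-0.32) without Polygalae Radix high replicate 2 (-0.13, adjusted p = 0.262). The first was also lost with RLE scaling, a filter at a mean of 1 CPM, only the groups compared, the trend removed and DESeq2 (adjusted p = 0.0794, 0.0787, 0.135, 0.159 and 0.0824), and the second with only the groups compared (0.0731). HMGCS1 differed by 2.46 ± 0.1 (SE, log2, adjusted p = 1.13e-24) and NPC1 by 1.8 ± 0.07 (adjusted p = 5e-25). EBP (-0.05 ± 0.08) and NPC1L1 (-0.12 ± 0.09) were not called, with adjusted p = 0.607 and 0.247, though EBP was after removal of the GC and length trend (-0.22, adjusted p = 0.0101). The 2 high doses, 250 and 280 ug/mL, and the 2 low doses, 10 and 11.2 ug/mL, were not the same.

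**Figure D4:**
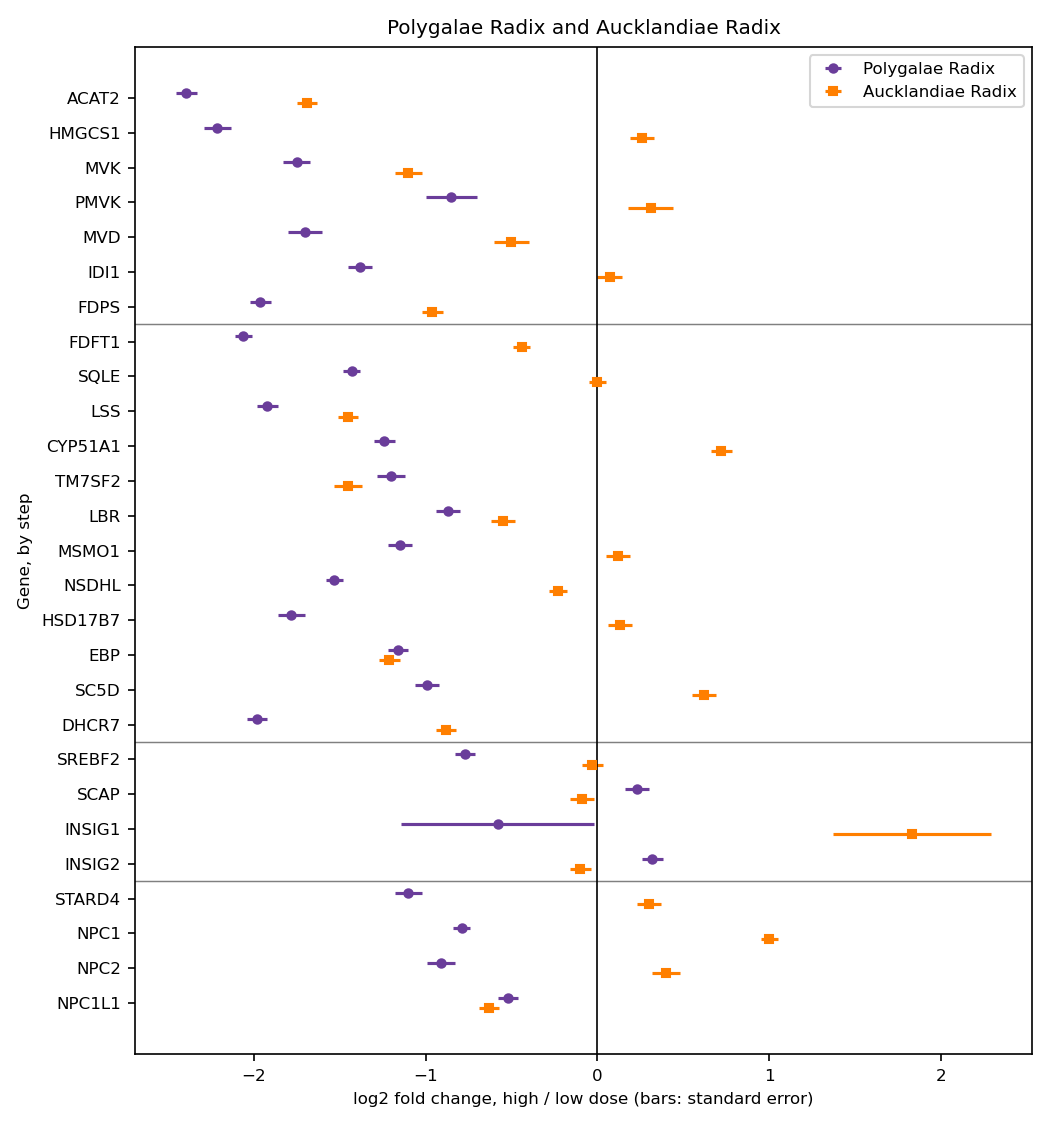
Log2 fold change at the high against the low dose (horizontal axis, bars show the standard error) of the 27 genes (vertical axis, by step) for Polygalae Radix (circles) and Aucklandiae Radix (squares). HMGCS1 lies at -2.21 and 0.26 and NPC1 at -0.79 and 1, while EBP lies at -1.16 and -1.21.

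With Menthae Herba minus Saposhnikoviae Radix, both at 500 and 20 ug/mL, 21 members differed downward and 1 upward (INSIG2). Of all genes 10.7% differed, 6.03% downward and 4.64% upward. HMGCS1 differed by -1.19 ± 0.08 (SE, adjusted p = 3.89e-15) and INSIG2 by 0.41 ± 0.07 (adjusted p = 3.83e-05). With Guibi-tang minus Saengmaek-san at the same doses, 20 differed downward and 3 upward (PMVK, INSIG2 and NPC1). Of all genes 19.6% differed, 10% downward and 9.56% upward. HMGCS1 differed by -0.73 ± 0.08 (adjusted p = 2.95e-09) and INSIG2 by 0.2 ± 0.07 (adjusted p = 0.0479). The INSIG2 difference was lost without any 1 of 8 of the 12 libraries and with RLE scaling, no filter, only the groups compared and DESeq2 (adjusted p = 0.0538, 0.146, 0.09 and 0.0681), and the PMVK difference (0.48) without Saengmaek-san high replicate 1 or low replicate 3 or Guibi-tang high replicate 1, high replicate 3 or low replicate 3 (adjusted p = 0.0834, 0.0599, 0.0598, 0.0979 and 0.0738) or with only the groups compared (0.0556). The NPC1 difference (0.2) was not called with no filter (0.19) or with the GC and length trend removed (0.14). The SCAP difference was called under that last setting (0.17, adjusted p = 0.0225).

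The medium dose changed few members against the low dose. With Polygalae Radix 5 were lower (ACAT2 -0.27, FDFT1 -0.2, CYP51A1 -0.21, LBR -0.23 and SC5D -0.22), where 8.3% of all genes were called. That count was 2 without medium replicate 2, low replicate 2 or low replicate 3, 14 without medium replicate 3, 8 with a filter at a mean of 1 CPM, and 0 when only the 2 groups were fitted. With Aucklandiae Radix FDPS alone was lower (-0.23), against 4.28% of all genes, and the count was 0 without any 1 of the 4 libraries, 2 with no filter, and 4 when only the 2 groups were fitted or the trend was removed. With the trend removed 7.25% of all genes were called there. With Guibi-tang TM7SF2 alone was lower (-0.22), against 3.59% of all genes (of which 53% were higher, and 73.5% after removal of the GC and length trend), and the count was 0 without medium replicate 1, 2 or 3 or low replicate 1 or 3. With edgeR 0 members were called with Menthae Herba (0.118% of all genes, of which 20% were higher and 42.3% with the trend removed, 11 members at an unadjusted p under 0.05, 1 by DESeq2, 10 when only the 2 groups were fitted and 2 with the trend removed, all of these lower), Saposhnikoviae Radix (0.0118% of all genes, of which 50% were higher and 33.3% with the trend removed, 1 member at an unadjusted p under 0.05, 0 by DESeq2), Saengmaek-san (0%, 0 and 0) and Soyo-san (0.00589%, 0 and 0).

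Against vehicle the members were compared with 3 libraries that all extracts share and whose sample codes begin with a label of their own, so an effect of treatment and one of whatever that label marks cannot be told apart. The vehicle libraries also had the GC trend given above, unlike the low-dose libraries. At the low dose 16 members were higher and 3 lower with Polygalae Radix (35.9% of all genes called), 12 and 7 with Aucklandiae Radix (33.1%), 11 and 3 with Menthae Herba (37.9%), 12 and 3 with Saposhnikoviae Radix (37.5%), 14 and 3 with Saengmaek-san (38.3%), 11 and 4 with Guibi-tang (39.9%) and 13 and 3 with Soyo-san (34.1%). Of all genes called in these comparisons, 49.1% to 50.5% were higher. For Aucklandiae Radix the total was 12 without Vehicle replicate 2, 11 without low replicate 2, and 9 after the GC and length trend was taken out, of which 8 were higher and 1 lower. Of all genes 12.8% were higher and 11% lower there under that setting. With the other extracts 1 member was lower with the trend taken out, except for 2 with Guibi-tang, where 11.3% to 15.6% of all genes were lower over these extracts. STARD4 was 0.43 to 0.59 higher and INSIG2 0.42 to 0.52 higher on the log2 scale in all 7 low-dose groups, and the log2 fold change of SCAP was -0.45 to -0.38. After removal of the GC and length trend these ranges were 0.2 to 0.33, 0.18 to 0.26 and, for SCAP, -0.18 to -0.11, still called in all 7. SREBF2 and NPC1L1 were also called lower in all 7, but with the GC and length trend removed SREBF2 was called in none (0.01 with Polygalae Radix) and NPC1L1 with Guibi-tang alone (-0.13).

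At the high dose against vehicle, 1 member was higher and 25 lower with Polygalae Radix (66.9% of all genes called), 12 and 14 with Aucklandiae Radix (73.3%), 2 and 22 with Menthae Herba (48.2%) and 4 and 16 with Guibi-tang (50.9%). With Soyo-san 4 were higher and 14 lower (38.7%), with Saposhnikoviae Radix 7 and 9 (40.1%) and with Saengmaek-san 11 and 6 (40.3%). Of all genes called in these 7 comparisons, 48.7% to 50.1% were higher. After removal of the GC and length trend there were 4 and 6 with Saposhnikoviae Radix and 12 and 1 with Saengmaek-san. Under that setting 29.4% and 31.1% of all genes were called, and of these 58.6% and 57.1% were higher. HMGCS1 was lower with Polygalae Radix (-1.76), Menthae Herba (-1.07), Guibi-tang (-0.59) and Soyo-san (-0.35) and higher with Aucklandiae Radix (0.44) and Saengmaek-san (0.16). The call with Saengmaek-san was lost without Vehicle replicate 2 or 3 or high replicate 1 or 3 (adjusted p = 0.0747, 0.174, 0.0681 and 0.0519), and its value was 0.01 once the trend was taken out. DHCR7 was lower in all 7 in this fit, although with the GC and length trend removed its value with Saengmaek-san turned from -0.13 to 0.07 and its call was also lost without Vehicle replicate 2 or 3 or high replicate 2 (adjusted p = 0.0734, 0.0983 and 0.218), with no filter and with only the groups compared. With Saposhnikoviae Radix its call was lost with the trend removed (-0.04). STARD4 with Guibi-tang (0.13) and Soyo-san (0.23) turned to -0.19 and -0.01 under that setting.

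**Figure D5:**
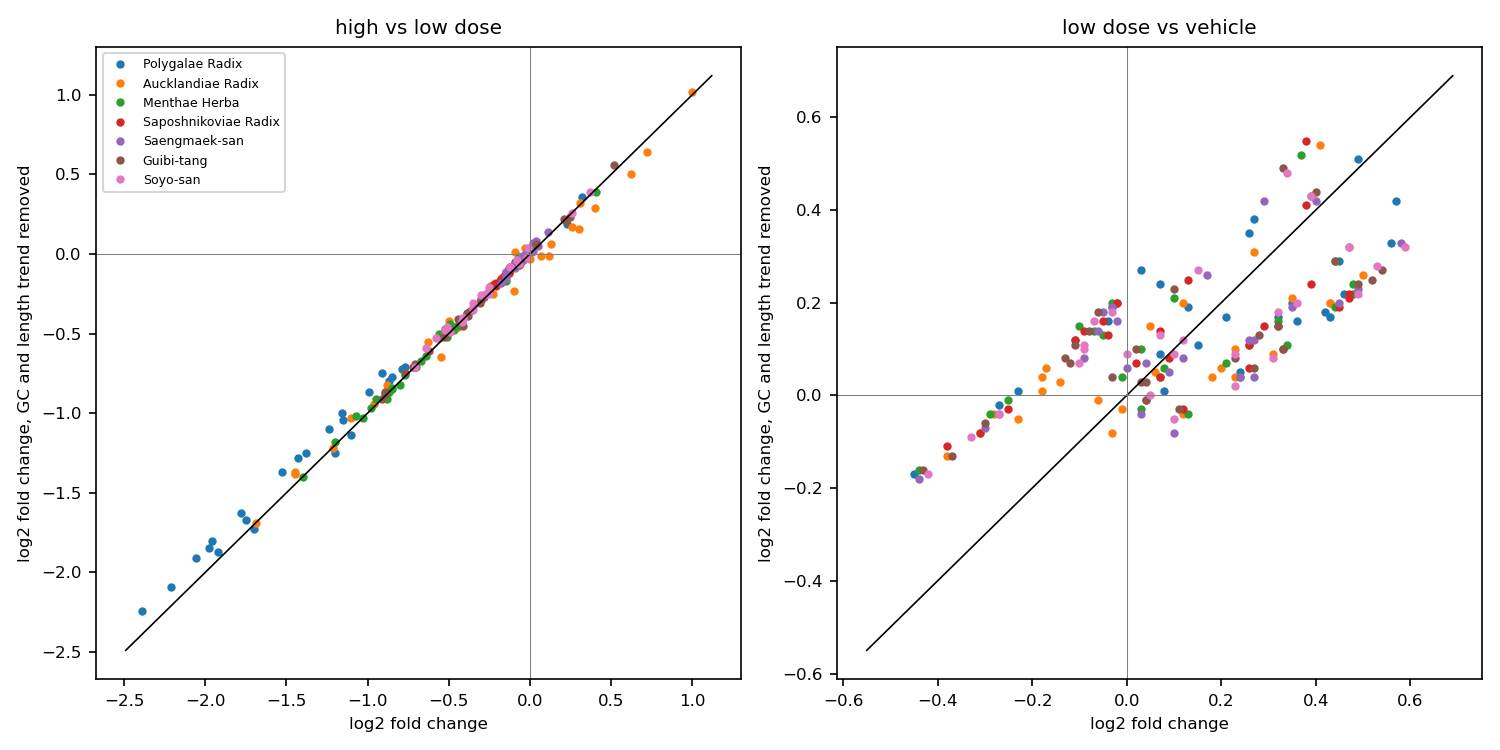
Log2 fold change of 26 members (all but INSIG1) in 7 extracts as fitted (horizontal axis) and with the trend on transcript GC content and length removed (vertical axis), for high against low dose (left) and low dose against vehicle (right), with the line of equal values. Points for high against low dose lie close to the line, and those for low dose against vehicle fall away from it on both sides.

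Okbyeongpung-san had 1 library per dose, so its differences have no replicate check and no p-value. At the high dose 24 of 27 members were below the low dose, in 8 of them with the low dose at least 25% above the high dose, and 0 were at least 25% above the low dose. Of all tested genes 11.9% and 8.2% passed these limits. The member median was -0.23 on the log2 scale, against 0 over tested genes. HMGCS1 was 394 CPM (exact 95% Poisson interval 387 to 402, counting error only) at the high and 513 (504 to 522) at the low dose. TM7SF2 had a difference of -0.53, from 84.8 CPM (81 to 88.7) to 58.8 (56 to 61.8).

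Other genes of cholesterol handling were given by 4 lists, at the high against the low dose. Over all genes, 31.5% were higher and 32.7% lower in this comparison with Polygalae Radix, 34.1% and 35.3% with Aucklandiae Radix, 11.4% and 12.1% with Menthae Herba, 17.1% and 17.2% with Guibi-tang, and 2.2% and 1.73% with Soyo-san. Of 9 genes of SREBP processing and sterol-regulated degradation, 5 were higher and 4 lower with Polygalae Radix, 3 and 4 with Aucklandiae Radix, 1 and 5 with Menthae Herba, 5 and 2 with Guibi-tang, and 0 and 1 with Soyo-san. Among them ERLIN2 was lower with Polygalae Radix (-1.39), and SREBF1, the gene of the related factor SREBP1, with Aucklandiae Radix (-1.19). SREBF1 was also lower with Menthae Herba (-0.64), Guibi-tang (-0.43) and Soyo-san (-0.38), the last a call lost without low replicate 1 (adjusted p = 0.0615).

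Of 6 tested genes of sterol efflux and the LXR receptors, which respond to oxysterols, 2 were higher and 4 lower with Aucklandiae Radix, where 69.5% of all genes were called. MYLIP, a ubiquitin ligase of lipoprotein receptors, rose from 4.57 ± 0.379 to 42.4 ± 9.51 CPM (SD, n = 2), a log2 fold change of 3.21 ± 0.13 (SE, adjusted p = 5.85e-26 by edgeR). ABCG8, part of a sterol exporter, fell by 2.47 (SE 0.1, adjusted p = 2.99e-25), from 17.4 ± 1 to 3.14 ± 0.657 CPM. With Polygalae Radix 2 were higher and 3 lower, ABCG8 (-1.15) and ABCG5 (-0.68) the most. With Menthae Herba 3 were lower, ABCA1 the most (-0.66), and with Guibi-tang 2 were higher, NR1H3 (0.42) and NR1H2 (0.35).

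Of 6 genes of cholesterol ester and lysosomal handling, 1 was higher and 5 lower with Polygalae Radix, where 64.2% of all genes were called. LIPA, the lysosomal acid lipase, fell there by 2.74 (SE 0.06, adjusted p = 1.09e-34), from 118 ± 1.51 to 17.8 ± 1.64 CPM (SD, n = 2), and SOAT2, which esterifies cholesterol, by 1.91. With Aucklandiae Radix 3 were higher and 3 lower, with TMEM97 (-1.71) and NCEH1 (1.23) the most changed. TMEM97, known to bind NPC1, also fell with Menthae Herba (-0.9), Guibi-tang (-0.51) and Soyo-san (-0.51). With these 3 extracts the list had 0 higher and 3 lower, 3 and 1, and 1 and 1. Of 9 genes of isoprenoid use, 3 were higher and 5 lower with Polygalae Radix (FNTB -0.94 and PDSS2 -0.92), 4 and 4 with Aucklandiae Radix (COQ2 -1.35 and FNTB -1.23), 3 and 2 with Menthae Herba and 2 and 2 with Guibi-tang. Over all genes 64.2%, 69.5%, 23.5% and 34.4% were called in these 4 comparisons. In Saposhnikoviae Radix and Saengmaek-san edgeR called 0 genes of all 4 lists.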

How the data were processed

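RNA from HepG2 cells was sequenced in 60 libraries of 25 groups, and the groups follow the labels. The authors deposited 1 table of expected counts (RSEM, rounded here to whole numbers; 10.0% of values were not whole), made with FastQC 0.11.9, Trim Galore 0.6.5, STAR 2.7.3a and RSEM 1.3.3 on GRCh38 per the submitters' processing notes. Which annotation release and strand setting were used is not given in the sources used here, so overlapping genes may share counts. Libraries of low RNA amount had been left out by the authors, per the series' design text, and its hot-water extracts and wortmannin were not analysed here. Of 60675 gene identifiers, 57055 are in GENCODE 29, which gave names, lengths and GC content.

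Genes were filtered with filterByExpr (minimum count 10), scaled by TMM and tested with edgeR 4.0.16's quasi-likelihood test (R 4.3.3, limma 3.58.1) in 1 fit of 57 libraries and 22 groups (35 residual degrees of freedom, 16982 genes, common dispersion 0.00217). Okbyeongpung-san was left out of the fit for want of replicates. P-values were adjusted by Benjamini-Hochberg over all genes of a comparison, with a threshold of 0.05. CPM values are TMM-scaled. The 31 comparisons were high or medium against low dose, high or low dose against vehicle, and the difference in dose response between the extracts of a set. No pair of replicates agreed within sampling noise (lowest chi-square per gene 1.79). The agreement was uneven among groups. The value was 15.58 and 15.34 for the medium and high dose of Polygalae Radix. It reached 15.47 at the high dose of Guibi-tang and 14.65 in vehicle.

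Each comparison was repeated without a filter, with a filter at a mean of 1 CPM, with RLE scaling, with DESeq2 1.42.0, with only the groups compared, with a replicate block, after removal of the trend on GC content and length, and without each library in turn. The test was checked on simulated counts. A first pass mark, set on the share of changed genes recovered, was not met. It was replaced, after the misses were found to be genes of low count or of a change small for their count, by one on genes whose change is large for their count, which was met. Genes with few counts, such as INSIG1, can therefore be missed. The members and lists were chosen with earlier results of these data known. All 27 members could be named. Of these, 8 were given in every library, and for each extract up to 3 called members with the largest change. For each other list, up to 2 called genes per extract were named, except for some genes of the SREBP processing list, which are not reported here.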

Additional observations from a re-analysis of the deposited data

Results flagged for a closer look

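The dose response of 25 members differed between Aucklandiae Radix and Polygalae Radix by the test of the difference itself, edgeR's quasi-likelihood test of the interaction. Of all genes 60.1% differed in that test. The difference, Aucklandiae Radix minus Polygalae Radix on the log2 scale, was 2.46 for HMGCS1, 1.16 for PMVK, 1.43 for SQLE, 1.95 for CYP51A1, 1.61 for SC5D and 1.1 for DHCR7. Among the regulators it was 0.74 for SREBF2, 2.41 for INSIG1 and -0.42 for INSIG2. In the transport genes it was 1.39 for STARD4, 1.8 for NPC1 and 1.3 for NPC2. The summed hepatocyte markers at the high dose were 13200 to 13700 CPM with Aucklandiae Radix and 5880 to 6370 CPM with Polygalae Radix, and their part in these differences was not tested.

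For Menthae Herba minus Saposhnikoviae Radix, 22 members differed, against 10.7% of all genes. The values were -1.19 for HMGCS1, -0.9 for SQLE, -0.64 for DHCR7, -0.36 for SREBF2, 0.41 for INSIG2, -0.48 for STARD4 and -0.46 for NPC1L1. For Guibi-tang minus Saengmaek-san, 23 members differed, against 19.6% of all genes. The values were -0.73 for HMGCS1, -0.54 for SQLE, -0.4 for DHCR7, -0.26 for SREBF2, 0.2 for INSIG2 and -0.32 for STARD4.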

How the results depend on the processing

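Values of single members were recomputed under the alternatives, in comparisons with vehicle only for HMGCS1, SQLE, INSIG1, INSIG2, SREBF2, STARD4, NPC1L1 and DHCR7. Sign changes of other members against vehicle are therefore not counted. A change of sign was counted only where the value was called in the main fit or in the alternative. Of the 7857 values, 7597 kept their side of the threshold without such a change, 165 lost the call, 87 gained it and 8 changed sign. Values called in neither fit are among the 7597 even where their sign changed. The 8 changed sign with the GC and length trend removed, in comparisons with vehicle: SREBF2 at the low dose of Polygalae Radix (0.01), DHCR7 at the low dose of Aucklandiae Radix (0.03), Menthae Herba (0.13), Saposhnikoviae Radix (0.13) and Guibi-tang (0.07) and at the high dose of Saengmaek-san (0.07), and STARD4 at the high dose of Guibi-tang (-0.19) and Soyo-san (-0.01). The cause was not tested.

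Counts of called members moved by over 1.5 times in these cases. For medium against low dose, Polygalae Radix had 8 with a mean of at least 1 CPM and 0 with only the groups compared, against 5. Aucklandiae Radix had 2 with no filter, 4 with only the groups compared and 4 with the trend removed, against 1. Menthae Herba had 10 with only the groups compared, 2 with the trend removed and 1 with DESeq2, against 0. With the trend removed 7.25% of all genes were called for Aucklandiae Radix and 0.306% for Menthae Herba. For high against low dose, Saposhnikoviae Radix had 14 with only the groups compared and 11 with the trend removed, against 6, and Saengmaek-san had 1 with no filter, with only the groups compared and with the trend removed, against 0. Against vehicle with the trend removed, the low dose of Aucklandiae Radix had 9 against 19 and the high dose of Saposhnikoviae Radix 10 against 16. The share of all genes called there was 23.8% against 33.1% and 29.4% against 40.1%. The cause was not tested.

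Leaving out 1 library gave 2 to 14 for medium against low dose of Polygalae Radix, 0 to 0 for Aucklandiae Radix and 0 to 1 for Guibi-tang, 3 to 6 for high against low dose of Saposhnikoviae Radix, and 11 to 18 for the low dose of Aucklandiae Radix against vehicle.

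Same-numbered libraries of different groups deviated together unevenly (correlations from -0.149 to 0.674 in set 11, -0.234 to 0.467 in set 12, -0.166 to 0.269 in set 13 and 0.015 to 0.147 in set 14), so replicate numbers were not taken to pair the samples. With a replicate block, high against low dose gave 26 called members with Polygalae Radix, 20 with Aucklandiae Radix, 24 with Menthae Herba, 6 with Saposhnikoviae Radix, 0 with Saengmaek-san, 24 with Guibi-tang and 21 with Soyo-san. With a replicate block within set, medium against low dose gave 2 with Aucklandiae Radix and 1 with Menthae Herba. INSIG1 had at most 29 counts per library, so changes in it can be missed. Why its counts were so low was not tested.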
